A study of Mus musculus with 2 samples.

Results

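The 10 genes described here, some of which other skin cells also make, are known from macrophage activation and include receptors for its cytokines. They are the repair-type genes Arg1, Retnla, Mrc1, Clec10a and Tgm2, the classical activation gene Nos2, the receptor chains Il4ra and Il13ra1, and Il10 with its receptor chain Il10ra. They were picked by symbol from 24346 genes by a rule that uses no measured value, though with earlier results of these data known. All 10 were listed in both libraries. Skin wounds of WT mice and of mice without PU.1 (labelled PU.1_KO, written PU.1-/- here), all C57BL/6J, were harvested 24 h after injury, with the mRNA of each genotype read in 1 library. The study's methods describe full-thickness incisions of 1 cm in the dorsal skin of 1-day-old littermates, while the design text speaks of excisional wounds. Neither the labels nor the methods give the number or the sex of the pups behind each library. PU.1 is a transcription factor that blood-forming cells need to make macrophages and neutrophils, and it is missing from every cell of these mice, not from macrophages alone.

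Interleukin-4 and interleukin-13 bind receptors that share the chain Il4ra. A receptor of Il4ra with Il2rg answers interleukin-4 on blood cells, a receptor of Il4ra with Il13ra1 answers both cytokines and is also found on skin cells, and both act through Stat6. In mouse macrophages this signal turns on Arg1, Retnla, Mrc1 and Clec10a, a state called alternative activation, whereas bacterial products and interferon gamma turn on Nos2. Interleukin-10 restrains inflammation through Il10ra, the chain of leukocytes, paired with the widely expressed Il10rb, and acts through Stat3.

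Values are FPKM, the fragments of a gene scaled by transcript length and library depth, so that levels of different genes can be compared within a library. With 1 library per genotype no spread between animals and no p-value can be given. Lower and higher genes are those that differ at least 2-fold, after values below 0.1 FPKM had been raised to 0.1. The intervals are exact binomial ones at 95%, from estimated reads, and hold counting error only. Steps that single reads make in low values put the depth near 1.38e+07 reads (WT) and 1.58e+07 reads (PU.1-/-). Over the 6538 genes of at least 10 FPKM in both libraries the median log2 ratio of PU.1-/- over WT was -0.01, and the middle 90% lay between -0.44 and 0.43. Spi1, the gene that encodes PU.1, stood at 35.4 FPKM in WT against 1.45 in PU.1-/-. Xist, from the inactive X chromosome, was listed at 0 in WT and at 9.48 FPKM in PU.1-/-, and all 4 Y-linked genes examined were listed at 0 in PU.1-/- alone, so that sex and genotype cannot be told apart.

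Of the 10 genes, 6 were at least 2-fold lower in the PU.1-/- wound (Arg1, Retnla, Mrc1, Clec10a, Nos2 and Il10ra), against 4.34% of all listed genes. None was at least 2-fold higher, against 2.32% of all listed genes. Among the 13237 genes of at least 1 FPKM in 1 or both libraries, which leave out Il10, 4.45% were lower and 1.71% higher. The median log2 ratio of the 10 genes was -2.24, against 0.00 over all genes, and it lies between Arg1 and Retnla, so the values given to genes listed at 0 do not set it. The 4 genes that stayed within 2-fold were Il4ra, Il13ra1, Il10 and Tgm2. The cytokine receptor chains thus went apart, with Il4ra (70.8% of WT) and Il13ra1 (110% of WT) within 2-fold and Il10ra listed at 0 in PU.1-/-.

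**Figure D1:**
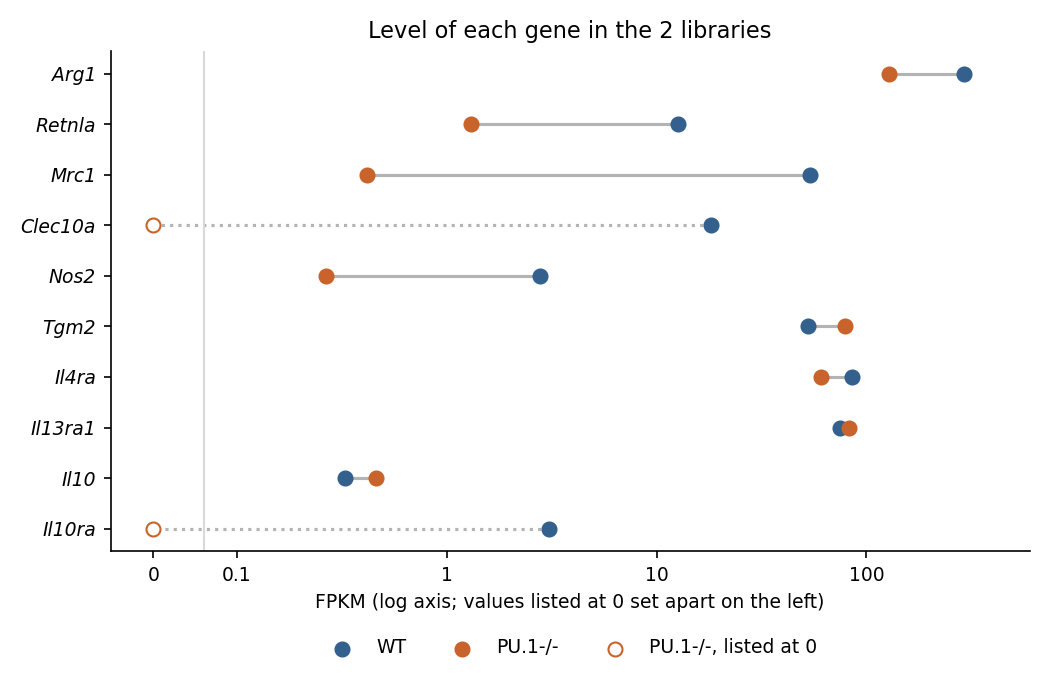
Level of each of the 10 genes in FPKM on a log axis, with WT in blue and PU.1-/- in orange, 1 library per point, and open circles at the left for values listed at 0. Mrc1, Clec10a, Retnla, Nos2 and Il10ra lie far apart between the libraries, while Il4ra, Il13ra1, Tgm2 and Il10 lie close together.

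The stretches of DNA before Retnla and Mrc1, which were lower, and before Il13ra1, which was not, are shown because PU.1 binds sites with a GGAA core and Stat6 prefers TTCNNNNGAA. They come from RefSeq windows on GRCm38.p6, the assembly of mm10, on the plus strand, from 250 bases before the RefSeq start up to the first base before any annotated transcript. Of the 10 genes, Retnla, Mrc1, Il4ra and Il13ra1 matched a window. Capitals mark AGGAAG on both strands, a form shifted by a base (GAGGAA) on both strands, which often overlaps it, and the Stat6 letters. Other GGAA cores, on either strand, are not marked and occur in each stretch shown, that of Il13ra1 included.
Retnla, chr16:48842359-48842550: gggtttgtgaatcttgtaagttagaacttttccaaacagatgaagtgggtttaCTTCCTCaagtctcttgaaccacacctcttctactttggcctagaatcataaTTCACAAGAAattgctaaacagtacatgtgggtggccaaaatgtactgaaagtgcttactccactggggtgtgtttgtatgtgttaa
Mrc1, chr2:14229164-14229391: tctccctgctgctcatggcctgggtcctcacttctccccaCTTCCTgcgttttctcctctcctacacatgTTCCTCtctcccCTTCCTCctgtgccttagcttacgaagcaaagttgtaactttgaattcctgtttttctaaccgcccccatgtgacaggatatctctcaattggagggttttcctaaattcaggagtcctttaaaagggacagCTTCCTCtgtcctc
Il13ra1, chrX:36111858-36112107: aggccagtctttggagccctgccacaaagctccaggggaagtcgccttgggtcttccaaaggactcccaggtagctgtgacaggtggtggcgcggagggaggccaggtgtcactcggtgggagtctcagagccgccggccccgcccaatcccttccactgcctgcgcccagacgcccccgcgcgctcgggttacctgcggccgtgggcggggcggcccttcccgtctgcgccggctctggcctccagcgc
In the full windows of 300 bases, which run 50 bases past the start, Mrc1 held 3 copies of AGGAAG and Retnla held 1. Il4ra, which stayed within 2-fold, also held 1, while Il13ra1 held 0. AGGAAG was thus not particular to the lower genes. AGGAAG occurs in 35.4% of all 32851 promoter windows and GAGGAA in 28.3% of them, so both are common. TTCNNNNGAA occurs in 6.95% of the windows, and of these 4 genes Retnla alone held it, beginning 145 bases before the start. A match describes the letters only and was not tested as a site.

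Arg1, on chromosome 10 from 24915207 to 24927470, encodes the arginase that splits arginine to ornithine and urea. Its level was 291 FPKM in WT against 128 in PU.1-/-. The PU.1-/- level was 43.9% of WT, a ratio of 0.439 (interval 0.419 to 0.460). In both libraries Arg1 was the highest of the 10 genes, at rank 309 of all genes in WT and rank 671 in PU.1-/-. Of the 12 macrophage markers, 10 were at least 2-fold lower, against 4.34% of all listed genes. The sum of the 12 macrophage markers went from 683 to 8.01 FPKM, 1.17% of WT, with Tyrobp (196 FPKM in WT) and C1qb (123 FPKM in WT) listed at 0. Arg1 therefore kept a larger share of its WT level than the sum of these markers did.

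Mrc1, on chromosome 2 from 14229414 to 14332023, encodes the mannose receptor, a surface lectin of tissue macrophages. It had 53.6 FPKM in WT against 0.417 in PU.1-/-, which is 0.777% of WT. About 3825 reads were estimated in WT and about 34 in PU.1-/-, a ratio of 0.00777 (0.00535 to 0.0108). The PU.1-/- library was thus far below WT, with few but not 0 reads. Mrc2, the paralog made by fibroblasts, had 6.06 and 5.55 FPKM.

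Clec10a, on chromosome 11 from 70166623 to 70170836, encodes the galactose-binding lectin CD301a of macrophages and dendritic cells. It had 18.2 FPKM in WT, about 325 reads, and was listed at 0 in PU.1-/-. If that value is a true count of 0, the depth allows up to 0.146 FPKM (3 reads). The close paralog Mgl2 had 0.915 FPKM in WT and was listed at 0 in PU.1-/-. How reads were divided between these paralogs is not stated, so their separate values are uncertain, but the PU.1-/- value was 0 for both. Dendritic cell markers were scarce in both libraries, summing to 1.86 FPKM in WT against 3.11 in PU.1-/- over 7 genes, with Flt3 at 0 in both. Zbtb46, which endothelium also expresses, carries most of that sum (1.28 and 2.77 FPKM), and the other 6 markers summed to 0.580 and 0.342 FPKM.

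Retnla, on chromosome 16 from 48842609 to 48844461, encodes a small secreted resistin-like protein. It had 12.7 FPKM in WT against 1.31 in PU.1-/-. These values stand for 68 and 8 reads, the whole numbers that, scaled for depth, give the observed FPKM ratio of 0.102 (0.0425 to 0.213). The PU.1-/- wound held 10.2% of the WT level, and the interval lies below 0.5. Among the other family members, Retn, which mouse adipocytes make, had 166 and 30.3 FPKM, and Retnlg had 215 FPKM in WT and was listed at 0 in PU.1-/-, while Retnlb was listed at 0 in both. Of the 4 family genes, 3 were at least 2-fold lower, against 4.34% of all listed genes.

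Nos2, on chromosome 11 from 78920787 to 78960226, encodes the inducible nitric oxide synthase, which competes with arginase for arginine. It had 2.78 FPKM in WT against 0.265 in PU.1-/-, from 146 and 16 reads. The ratio was 0.0954 (0.0531 to 0.160). At 9.54% of WT, Nos2 was near the repair-type marker Retnla at 10.2%, with intervals that overlap. The other repair-type genes lay apart from this share. Mrc1 was at 0.777%, Arg1 at 43.9% and Tgm2 at 151% of WT, and Clec10a was listed at 0 in PU.1-/-. Arg1 was 105 times the level of Nos2 in the WT wound and 481 times in the PU.1-/- wound. The constitutive synthases differed less, with Nos3 of endothelium at 4.16 and 3.65 FPKM and Nos1 near 0 in both.

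Tgm2, on chromosome 2 from 158116405 to 158146392, encodes tissue transglutaminase, which crosslinks matrix proteins and is made by macrophages, fibroblasts and endothelium. It was the highest in ratio of the 10 genes, with 52.6 FPKM in WT against 79.3 in PU.1-/-, 1.51 times the WT level (1.44 to 1.59). Its log2 ratio of 0.59 lies outside the middle 90% of well expressed genes but short of 2-fold. Skeletal muscle markers moved in the same direction, with a median log2 ratio of 0.78 over 8 genes, as did fibroblast markers at 0.27 (10 genes) and endothelial markers at 0.19 (10 genes). Their part in the Tgm2 value was not tested. Exons of Rprd1b and of Gm20412 overlap those of Tgm2 on the opposite strand, and Gm20412 has no listed value. Rprd1b had 8.93 and 10.2 FPKM, well below Tgm2 in both libraries, and whether the counting used strand is not stated.

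**Figure D2:**
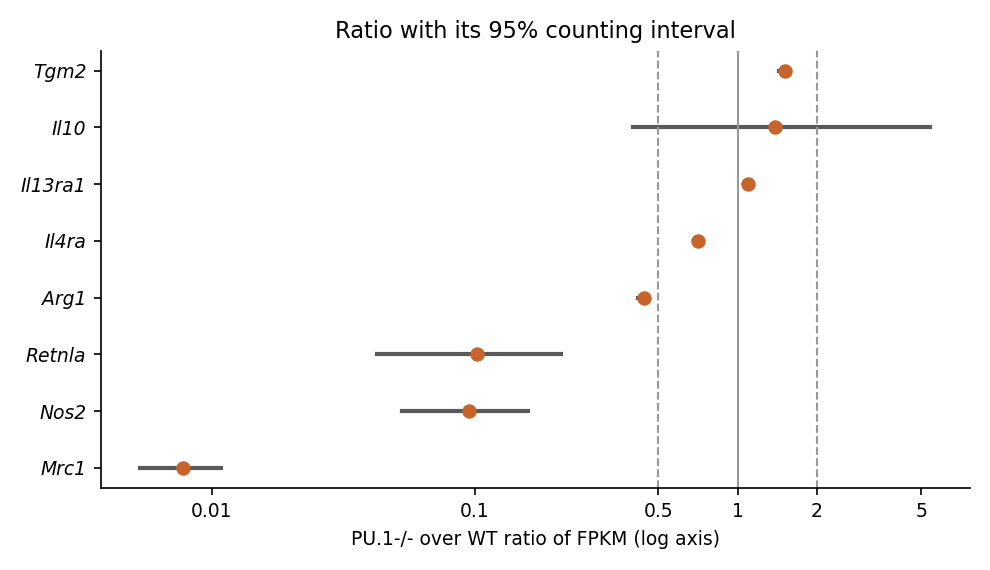
Ratio of PU.1-/- over WT FPKM on a log axis for the 8 genes with a value above 0 in both libraries, with bars for the 95% counting interval, a solid line at 1 and dashed lines at 0.5 and 2. Mrc1, Nos2 and Retnla lie far below 0.5, Arg1 just below it, and the bar of Il10, with 5 and 8 reads, crosses all 3 lines.

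Il4ra, on chromosome 7 from 125552271 to 125579474, had 85.6 FPKM in WT against 60.6 in PU.1-/-, 70.8% of WT. The ratio of 0.708 (0.682 to 0.736) did not reach 2-fold, while its log2 value of -0.50 lies just outside the middle 90% of well expressed genes. Exons of Gm44876 overlap those of Il4ra on the opposite strand, and reads from it cannot be told apart unless strand was used. Il13ra1, on chromosome X from 36112108 to 36171262, had 74.7 FPKM in WT against 82.3 in PU.1-/-, and the ratio was 1.10 (1.06 to 1.15). In WT Il4ra was the higher of these chains, and in PU.1-/- Il13ra1 was, at 0.872 and 1.36 times the level of Il4ra. Since Il13ra1 is X-linked and the libraries differ in Xist, the X-linked genes were set beside it. Over 169 X-linked genes of at least 10 FPKM in both libraries the median log2 ratio was 0.00, with quartiles of -0.14 and 0.13, and Il13ra1 at 0.14 lay just above the upper quartile.

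Il2rg, the common gamma chain, which partners Il4ra on blood cells, had 11.9 FPKM in WT against 6.61 in PU.1-/-, or 55.5% of WT. It was thus the lower partner in both libraries, 7.19-fold below Il4ra in WT and 9.17-fold in PU.1-/-. Il13ra2, which binds interleukin-13 without the usual signal, had 4.72 and 4.41 FPKM. Stat6 had 32.9 and 28.7 FPKM. The cytokines themselves were near the limit of detection, with Il4 at 0.185 FPKM and Il13 at 0.218 FPKM in WT and both listed at 0 in PU.1-/-, so that no difference in them can be read at this depth.

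Of the 20 genes on the list of interleukin-4 and interleukin-13 signalling, 3 were at least 2-fold lower and 0 were higher. The shares over all listed genes were 4.34% and 2.32%. The median log2 ratio of the list was -0.24, against 0.00 over all genes. The lower genes were Ptpn6, a phosphatase of blood cells that dampens receptor signals (3.31 FPKM in PU.1-/-, or 15.8% of WT), Socs1, an inhibitor of JAK kinases (9.96 to 4.61 FPKM), and Il13, which is counted only through its few WT reads and in which no difference can be read. Of the 18 genes on this list of at least 1 FPKM in 1 or both libraries, 2 were lower and 0 higher. Of all genes at that level, 4.45% were lower and 1.71% higher. The kinase Jak1, at 52.1 and 55.2 FPKM, and Klf4, a factor of epidermis and macrophages, at 215 and 172 FPKM, stayed within 2-fold. Both of these genes are also made outside blood cells.

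Il10, on chromosome 1 from 131019845 to 131024970, had 0.329 FPKM in WT against 0.459 in PU.1-/-, from 5 and 8 reads. The ratio of 1.39 had an interval from 0.402 to 5.41, which takes in 2-fold differences in both directions, so that no difference was detectable at this depth. Its receptor chain Il10ra, on chromosome 9 from 45253837 to 45269149, had 3.07 FPKM in WT, about 140 reads, and was listed at 0 in PU.1-/-. If this is a true count of 0, the depth allows up to 0.0575 FPKM. Il10rb, the partner chain, which also serves other cytokines of the family, had 29.8 and 23.8 FPKM, or 79.9% of WT. It was 9.69 times as abundant as Il10ra in the WT wound and remained in the PU.1-/- wound.

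Downstream of this receptor, Stat3 had 97.9 and 126 FPKM, and Socs3, a feedback gene that many cytokines induce, had 114 and 113 FPKM. Of the 13 genes on the interleukin-10 signalling list, Il10ra alone was at least 2-fold lower, 0 were higher, and the median log2 ratio was 0.08. Over all listed genes, 4.34% were lower and 2.32% higher. In the wider family of 12 cytokines and receptors, Il10ra was lower and Il22ra2, a soluble binder of interleukin-22, was higher (0.638 to 1.36 FPKM). Il19, a family cytokine of keratinocytes, had 23.6 and 22.8 FPKM, far above Il10 in both libraries.

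**Figure D3:**
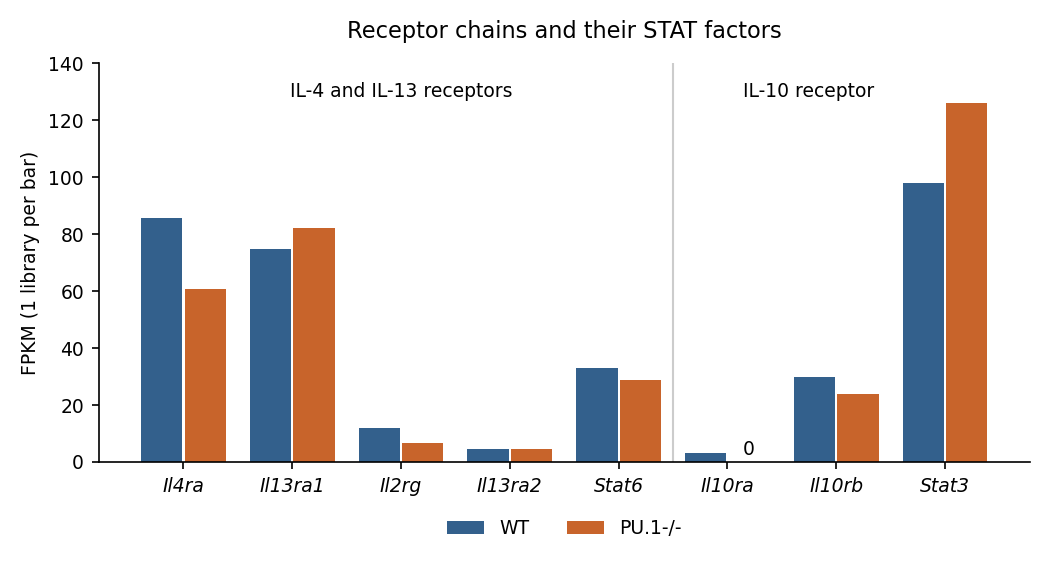
FPKM of the receptor chains of interleukin-4, interleukin-13 and interleukin-10 and of their STAT factors, with WT in blue and PU.1-/- in orange, 1 library per bar. Il4ra and Il13ra1 stand above 60 FPKM in both libraries, while Il10ra, low in WT, is listed at 0 in PU.1-/-.

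Further genes of each kind of activation were counted to set the 10 genes in context. Of 20 other alternative activation genes, 13 were at least 2-fold lower, against 4.34% of all listed genes, and 0 were higher, against 2.32%. Their median log2 ratio was -3.71. F13a1, coagulation factor XIII of macrophages, had 73.9 FPKM in WT and was listed at 0 in PU.1-/-. Chil3, a chitinase-like protein, went from 69.6 to 0.0945 FPKM and Cd163, the hemoglobin scavenger receptor, from 29.0 to 0.0448 FPKM. Msr1, another scavenger receptor, had 58.5 FPKM in WT and a log2 ratio of -9.19 with its PU.1-/- value raised to 0.1 FPKM. Cd36, a fatty acid transporter that adipocytes and endothelium also make, stayed within 2-fold, with 138 FPKM in PU.1-/- and a log2 ratio of 0.03, as did Cbr2, a carbonyl reductase (16.8 and 9.55 FPKM), and Igf1, a growth factor (7.64 and 4.64 FPKM).

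Of 20 other classical activation genes, 13 were at least 2-fold lower, against 4.34% of all listed genes, and 1 was higher, against 2.32%. Their median log2 ratio was -1.92. Il1b, the interleukin-1 beta cytokine, went from 63.9 to 0.169 FPKM, Fpr2, a formyl peptide receptor, from 13.4 to 0.0579 FPKM, and Marco, a scavenger receptor, from 7.92 to 0.0707 FPKM. Cxcl10, an interferon-induced chemokine, was the higher gene, at 25.1 FPKM in PU.1-/- and 4.83 times the WT level. Il6, which fibroblasts and keratinocytes also make, had 70.3 and 50.4 FPKM, and Ptgs2, the inducible cyclooxygenase, had 20.0 and 28.4 FPKM. Lower genes thus made up 13 of 20 on both lists. Among genes of at least 1 FPKM in 1 or both libraries, the counts were no longer equal. There 11 of 14 alternative genes were lower (median log2 ratio -4.72), and 9 of 14 classical genes (median -2.32). Of all genes at that level, 4.45% were lower. The kept genes on both lists included ones that other skin cells express, and which cells made them was not tested.

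Around Arg1 and Nos2, the 21 genes of arginine and polyamine metabolism had a median log2 ratio of -0.06, and only these 2 were at least 2-fold lower. Shares over all listed genes were 4.34% lower and 2.32% higher. Arg2, the mitochondrial arginase, had 12.3 and 7.39 FPKM, so that Arg1 was 23.7 times its level in WT and 17.3 times in PU.1-/-. Odc1, which turns ornithine into polyamines, had 198 and 200 FPKM, and Sat1, which acetylates them, 216 and 202 FPKM. The polyamine genes were at like levels in both libraries while arginase was not. Ass1, which remakes arginine from citrulline, was listed at 0 in WT and at 2.69 FPKM in PU.1-/-, and Agmat, at 0 and 0.210 FPKM, was the other gene counted as higher. Agmat is counted only through about 4 PU.1-/- reads, so no difference in it can be read.

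Markers of several leukocytes were lower together with these genes, and their counts stand against 4.34% lower genes among all listed genes. Macrophage markers were at least 2-fold lower in 10 of 12, mast cell markers in 7 of 8, with Tpsb2 from 224 to 0.788 FPKM and Cma1 from 223 to 0.436 FPKM, and neutrophil markers in 7 of 9, with their sum at 29.8% of WT. Their part in the values of the 10 genes was not tested. S100a8 and S100a9, which injured keratinocytes also make, remained at 2129 and 1516 FPKM, against 6600 and 5311 FPKM in WT. They carry most of the neutrophil sum, and without them the other 7 markers went from 440 to 31.3 FPKM, 7.11% of WT. Eosinophil markers were below 1 FPKM in both libraries in 6 of 6, and T cell and innate lymphoid markers were lower in 5 of 10. Fibroblast, endothelial and keratinocyte markers had median log2 ratios of 0.27, 0.19 and 0.20. Adipocyte markers had a median of -0.76, with 2 of 6 at least 2-fold lower, Plin1 of the lipid droplet (47.2 to 21.1 FPKM) and the hormone gene Lep (0.945 to 0.165 FPKM). In these bulk samples fewer cells of a type and less RNA per cell cannot be told apart, so the lower values of Mrc1, Clec10a, Retnla, Nos2, Il10ra and Arg1 do not say which of these occurred.

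**Figure D4:**
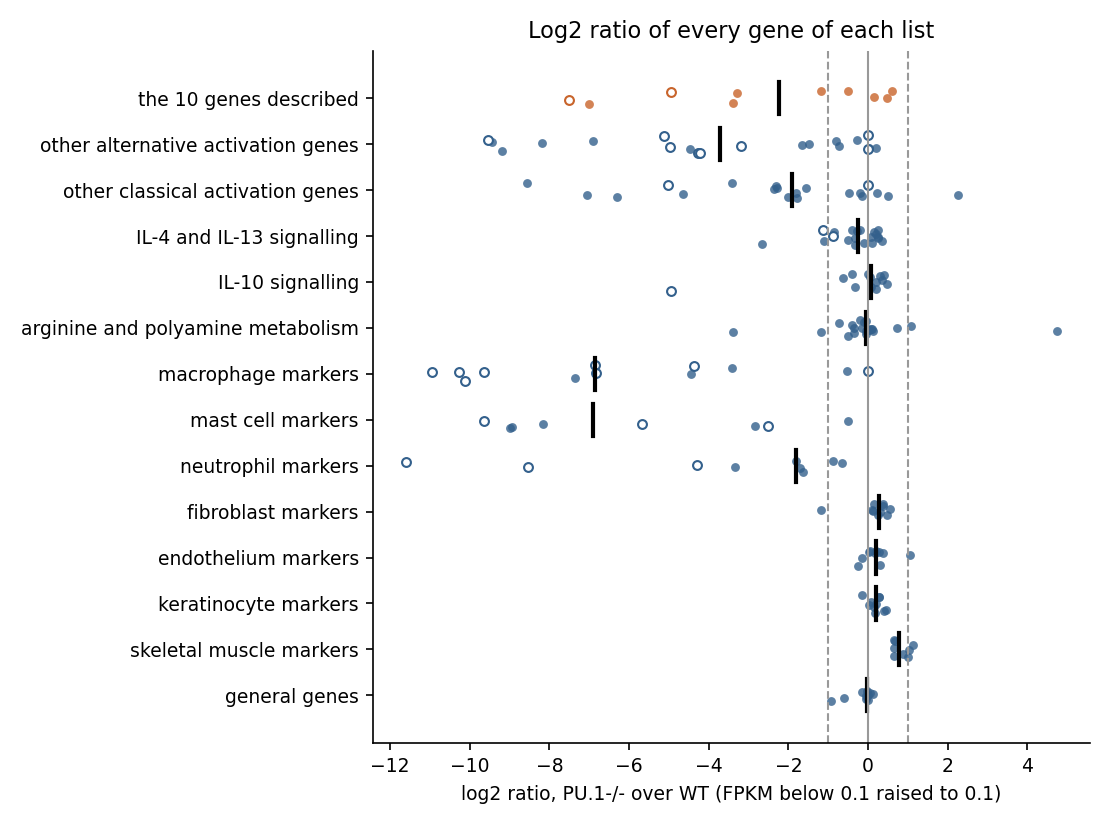
Log2 ratio of PU.1-/- over WT for every listed gene of each list, after values below 0.1 FPKM were raised to 0.1, with black bars for medians, open circles for genes listed at 0 in PU.1-/- (at a ratio of 0 where WT is also at or below 0.1 FPKM) and dashed lines at 2-fold. The 10 genes (median -2.24) are spread from Clec10a at the lowest to Tgm2 at the highest ratio, while macrophage markers have a median of -6.84 and fibroblast and endothelial markers of 0.27 and 0.19.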

How the data were processed

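Bulk mRNA of 1 WT and 1 PU.1-/- skin wound library was analysed. The authors made stranded mRNA libraries, read them as single ends of 75 bases, mapped them to mm10 and deposited FPKM values, calculated with Cuffnorm 2.2.1 per the methods. The submitters' processing notes name TopHat2 2.1.1, Bowtie2 2.2.8, SAMtools 0.1.18 and Cuffdiff 2.2.1. The annotation, read filters and strand setting are not stated there or in the methods.

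Ratios were taken from the deposited FPKM values after values below 0.1 were raised to 0.1, and genes were counted at 2-fold. Read numbers were estimated. Among genes below 2 FPKM, 458 had the same ratio of WT to PU.1-/-, 1.15 within 0.001, which marks equal read numbers. Their FPKM times transcript length less 200 bases (GENCODE M21 transcripts linked to RefSeq) peaked at the worth of 1 WT read, from 102 of 355 genes with transcripts of at least 1000 bases. Whole read numbers are given for Retnla, Nos2 and Il10, where a single pair near the estimate, scaled for depth, gave the observed ratio within 0.05 reads. Other read numbers are estimates that depend on the transcript length, while ratios do not. The recovery of steps and depth was tried on simulated reads. These were made with the same lengths less 200 bases, so those settings were not tested.

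There are 2 libraries and no replicates, so no test was made. Alternatives were the floor, pseudocount, scaling, filter and fold. The genes and lists were chosen with earlier results of these data known. Genes named are the 10, their ligands, chains and paralogs, and the highest or most different of each list. Beyond that rule, Il13 and Agmat (counted as called), Il22ra2, Cd36, Cbr2, Igf1, Clec9a, Cd209a, Cd209d, Flt3, Zbtb46, Plin1, Lep, Gm44876, Gm20412 and Rprd1b were named after the values were seen. The marker sums without S100a8, S100a9 and Zbtb46 were also chosen after seeing the data. Of 256 list symbols, 253 were listed, 2 under an older symbol. Analyses used Python 3.11.15, numpy 2.4.6, pandas 2.3.3, scipy 1.17.1 and matplotlib 3.10.9.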

Additional observations from a re-analysis of the deposited data

How the results depend on the processing

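Across the 12 alternatives, the same 6 genes were counted as lower in 10 of them. These include the fold threshold of 1.5 and the filter of 1 FPKM, which leaves out Il10. The number of lower genes was 4 when genes had to reach 5 FPKM, which leaves out Il10ra, Nos2 and Il10. It was 5 at a fold threshold of 3, which leaves out Arg1. At a fold threshold of 1.5 the number of higher genes was 1, Tgm2, against 0 at 2-fold. In the 10 alternatives that keep the 2-fold threshold, all 96 values of single genes stayed on the same side of 2-fold. Log2 ratios ranged from -1.19 to -1.13 for Arg1, from -3.29 to -2.58 for Retnla, from -3.39 to -1.48 for Nos2, from -7.01 to -5.27 for Mrc1, from -0.50 to -0.44 for Il4ra, from 0.14 to 0.20 for Il13ra1, from 0.58 to 0.65 for Tgm2 and from 0.00 to 0.53 for Il10. The ranges were widest for Clec10a, from -10.83 to -4.18, and Il10ra, from -8.26 to -1.62, since both are listed at 0 in PU.1-/- and the floor or pseudocount sets the size of their ratios. Over all genes the number of lower ones, 1057, became 1778 with a floor of 0.01 FPKM, 463 with a floor of 1 FPKM, 461 with a pseudocount of 1 FPKM, 589 and 306 with filters of 1 and 5 FPKM, and 1867 and 681 at folds of 1.5 and 3. The number of higher ones, 565, became 1220, 164, 89, 226, 98, 1410 and 150. No paired analysis was possible because each genotype has 1 library. A value of 0 can be a failed estimate, as Ass1 in WT may be, and the low depth limits Il10, Il4 and Il13.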

Other observations

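Clec10a belongs to a larger group of C-type lectins of myeloid cells, of which 11 of 17 listed genes were at least 2-fold lower and 0 were higher in the PU.1-/- wound, against 4.34% of all genes. Of these 17, 16 were listed at 0 in PU.1-/-, as were 7458 of all 24346 listed genes. Among the 16, 3 were also at 0 in WT, and Cd209a and Cd209d, at 0.0566 and 0.111 FPKM there, did not count as lower. Clec4d, a lectin that senses mycobacterial lipids, had 67.8 FPKM in WT, Clec4n, which binds fungal mannans, 26.5 FPKM, and Clec4e, the receptor Mincle, 17.7 FPKM. The exception above 0 in both libraries was Clec9a, at 0.290 and 0.298 FPKM.

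The transglutaminase family of Tgm2 was measured as well. Tgm1, Tgm3 and Tgm5, enzymes of the epidermal barrier, had 106, 16.7 and 16.1 FPKM in WT and 118, 12.5 and 15.8 FPKM in PU.1-/-, while F13a1 of macrophages was listed at 0. Of the 9 listed genes of this family, Tgm6 (3.56 to 1.46 FPKM) and F13a1 were at least 2-fold lower and 0 were higher. Among all listed genes these shares were 4.34% and 2.32%.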
